A study of Homo sapiens with 6 samples.

Results

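ADM, CA12 and STC1 encode secreted or cell-surface proteins that are known for their induction by low oxygen, and their transcripts were followed across 3 siRNA treatments of 1 breast cancer cell line. The 3 genes were taken from the platform annotation as a named list, out of 14884 genes named there and 10640 tested, each by its brightest probe set. Each had 1 probe set, so no second measurement of the same transcript was at hand. They were selected on their log2 values in the siNC, siATM and sip53 samples, so these levels are described without a test.

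MDA-MB-231 is a triple-negative, mesenchymal-type human breast cancer line whose p53 is mutant. All cells were transfected with a lipid reagent, in the siATM group with siRNA against the DNA-damage kinase ATM, in the sip53 group with siRNA against p53, and in the control group with the siRNA siNC. Total RNA of 6 samples, 2 in each group, was hybridised to Human Gene 2.0 ST arrays. The labels mention no exposure to low oxygen, and they do not say whether the siRNAs were pools, how long the cells were kept after transfection or whether the 2 samples of a group were separate cultures. P-values therefore cover the spread between these samples only, and that spread may be technical. In a bulk RNA sample, less RNA per cell and fewer cells that express a gene cannot be told apart. ATM and p53 transcripts are not analysed here.

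When oxygen is low, the hypoxia-inducible factors escape the hydroxylases that mark them for destruction, pair with ARNT and bind a short DNA core in the promoters and enhancers of their target genes. ADM is the precursor of adrenomedullin, a secreted peptide that widens blood vessels and acts on the receptor CALCRL together with a RAMP protein. CA12 is a carbonic anhydrase anchored in the plasma membrane with its active site outside the cell, where it helps tumour cells to handle acid, and in luminal breast cancer it is also known as an estrogen receptor target. STC1 is stanniocalcin 1, a secreted glycoprotein first studied in calcium and phosphate balance and often high in hypoxic tumours.

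The stretches before the start sites of ADM and CA12 are shown because the core that hypoxia-inducible factors bind is the regulatory letter string these genes are best known for. They are RefSeq promoter windows of build GRCh38.p14, cut to the 250 bases before the start and read 5′ to 3′ on the gene's strand, with capitals marking each ACGTG or GCGTG on either strand. ADM lies on the plus strand at chr11:10304823-10305072 and CA12 on the minus strand at chr15:63381847-63382096.
ADM: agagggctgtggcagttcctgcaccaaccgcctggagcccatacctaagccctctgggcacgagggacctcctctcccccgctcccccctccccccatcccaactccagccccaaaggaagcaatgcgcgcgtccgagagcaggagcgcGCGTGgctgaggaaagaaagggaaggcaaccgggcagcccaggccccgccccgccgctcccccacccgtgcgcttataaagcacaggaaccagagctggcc
CA12: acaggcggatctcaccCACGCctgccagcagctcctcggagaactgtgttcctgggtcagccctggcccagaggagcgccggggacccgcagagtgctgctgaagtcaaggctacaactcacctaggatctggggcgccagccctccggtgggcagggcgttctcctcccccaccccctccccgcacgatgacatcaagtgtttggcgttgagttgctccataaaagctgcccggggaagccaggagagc
ADM held 1 core, GCGTG in reading direction, starting 101 bases before the start site. CA12 also held 1, read as CACGC because GCGTG lies on the opposite strand there, with its first letter 234 bases before the start. Such a core was present in 43.2% of all 35116 RefSeq windows cut in the same way and in 56.3% of the 8223 windows matched to genes tested on the arrays. Overlapping matches on the 2 strands were allowed. STC1 had no window in this set and was not searched. A match is a description of letters and not evidence of binding.

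ADM stood apart in the sip53 samples. Its log2 array values were 7.997 and 7.94 with siNC, 7.85 and 7.83 with siATM, and 8.69 and 8.77 with sip53. Both sip53 arrays lay above the other 4, which were close together. The group means were 7.97 ± 0.04 for siNC, 7.84 ± 0.02 for siATM and 8.73 ± 0.06 for sip53 (SD, n = 2 each). Between sip53 and siNC the log2 difference was 0.76 (SE 0.06), or 1.70-fold, and the differences between single arrays of these groups ran from 0.69 to 0.84. The order was siATM, siNC, sip53 from low to high. The log2 difference of siATM from siNC was −0.13 (SE 0.06), and single-array differences ran from −0.17 to −0.085. Over all tested genes, the difference between the 2 single arrays of a group had an SD of 0.148 for siATM and 0.124 for siNC.

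CA12 had the opposite order. Its log2 array values were 9.77 and 9.74 with siNC, 9.94 and 9.91 with siATM, and 9.21 and 9.17 with sip53. The sip53 arrays were the lowest and the siATM arrays the highest. Group means were 9.75 ± 0.02 for siNC, 9.92 ± 0.02 for siATM and 9.19 ± 0.03 for sip53 (SD, n = 2 each). The log2 difference of sip53 from siNC was −0.57 (SE 0.06), or 1.48-fold lower. That of siATM from siNC was 0.17 (SE 0.06), or 1.13-fold higher, and single-array differences ran from 0.14 to 0.20.

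STC1 was highest in the control cells. Its log2 array values were 11.01 and 11.04 with siNC, 10.64 and 10.61 with siATM, and 10.11 and 10.04 with sip53. The 3 groups formed steps with siNC at the top, siATM between and sip53 at the bottom. Group means were 11.03 ± 0.02 for siNC, 10.62 ± 0.02 for siATM and 10.07 ± 0.05 for sip53 (SD, n = 2 each). The log2 difference from siNC was −0.40 (SE 0.06) for siATM, or 1.32-fold lower, and −0.95 (SE 0.06) for sip53, or 1.94-fold lower. STC1 was the only member of the 3 whose mean was below siNC under both siRNAs.

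**Figure D1:**
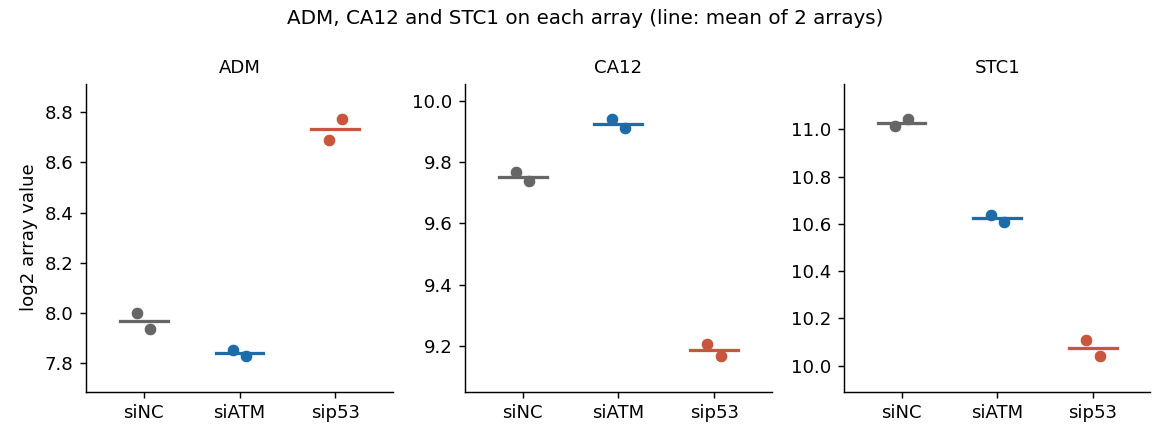
Log2 array value (vertical axes, 1 scale per gene, not starting at 0) of ADM, CA12 and STC1 on each array of the siNC, siATM and sip53 groups, with a line at the mean of 2 arrays. ADM is highest with sip53 (8.69 and 8.77), CA12 is lowest there (9.21 and 9.17), and STC1 steps down from siNC through siATM to sip53.

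Between siATM and sip53 directly, ADM had a log2 difference of −0.89 (SE 0.06), or 1.86-fold lower with siATM. CA12 was 1.67-fold higher with siATM than with sip53, with a log2 difference of 0.74 (SE 0.06). STC1 was 1.46-fold higher with siATM, with a log2 difference of 0.55 (SE 0.06). For 3 of 3 genes the arrays of the groups did not overlap in each comparison, as was the case for 62.7% of tested genes between siATM and siNC, 58.9% between sip53 and siNC and 65.4% between siATM and sip53. The sip53 and siATM comparisons use the same 2 siNC arrays. When any 1 array was left out, the difference of sip53 from siNC lay between 0.72 and 0.81 for ADM, between −0.58 and −0.55 for CA12 and between −0.99 and −0.92 for STC1.

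The arrays had been brought to nearly equal distributions, and over all tested genes the replicate arrays differed with an SD between 0.115 and 0.148. The 6 basal or mesenchymal markers looked up (VIM, CD44, FN1, AXL, ZEB1 and SNAI2) all had means above 5.96, the lower limit for testing. The luminal markers ESR1, PGR and FOXA1 were below it. The other luminal markers named, GATA3, KRT8, KRT18, KRT19, EPCAM and TFF1, were above it, with means from 7.01 (TFF1) to 11.86 (KRT18). VIM had a mean of 11.62, so the list does not separate the 2 types cleanly. Of the 6 basal or mesenchymal markers, FN1 rose after siATM (log2 fold change 0.43, adjusted p = 0.00201), and SNAI2 rose and ZEB1 fell after sip53 (0.33 and −0.24, adjusted p = 0.0177 and 0.0452; limma). The luminal transcription factor gene GATA3 had log2 values of 8.10 and 8.06 with siNC, 8.49 and 8.29 with siATM, and 8.68 and 8.77 with sip53. Its sip53 arrays were the highest of the 6, while the sip53 arrays of the luminal genes TFF1 (6.75 and 6.92) and KRT8 (7.96 and 7.87) included the lowest. Of 9 luminal markers named 6 were tested, of which 2 rose after siATM and 1 after sip53, and 0 fell (limma, adjusted p below 0.05), beside 12.5% of all tested genes higher after siATM and 5.47% after sip53, with a mean log2 level over the list of 7.83 in both siNC arrays, 7.85 to 7.95 with siATM and 7.85 to 7.87 with sip53. Of 7 haematopoietic markers, CD14, LYZ and CD68 were named, and their mean log2 level was 9.06 to 9.11 with siNC, 9.65 to 9.66 with siATM and 8.67 to 8.78 with sip53, the same order as CA12. Of these 3, 2 rose after siATM and 1 fell after sip53 (limma, adjusted p below 0.05), beside 12.5% and 5.11% of all tested genes. Of 8 endothelial or fibroblast markers 5 were named, with a mean log2 level of 5.84 to 5.92, 5.81 to 5.87 and 6.001 to 6.04 in the same order of groups, and of the 3 tested LUM rose after each siRNA (0.68 and 0.49, adjusted p = 0.00164 and 0.0120) and PECAM1 fell after siATM (−0.47, adjusted p = 0.0113; limma). Beside the basal, endothelial and fibroblast calls stand 12.5% of all tested genes higher and 13.0% lower after siATM, and 5.47% and 5.11% after sip53. The part of these markers in the values of ADM, CA12 and STC1 was not tested.

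The wider hypoxia pathway was followed in 6 lists with 133 other genes, of which 75 were named and 62 tested. After siATM 17 of the 62 changed, 11 higher and 6 lower, which is 27.4% of them against 25.5% of all tested genes (12.5% higher, 13.0% lower; limma, adjusted p below 0.05). After sip53 10 changed, 4 higher and 6 lower, or 16.1% against 10.6% of all tested genes (5.47% higher, 5.11% lower). Centring each array on its median turned the split of all genes called after sip53 from 582 higher and 544 lower into 410 and 668, and that of the lists into 4 and 8. When 1 siNC or sip53 array was left out, the lists held 2 to 4 calls after sip53 and all genes 272 to 329. The median log2 difference over the 62 genes was 0.058 after siATM and −0.0016 after sip53, beside −0.00062 and 0.0145 over all tested genes. Called genes lay on both sides of 0 in each comparison, as the values of ADM, CA12 and STC1 do.

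**Figure D2:**
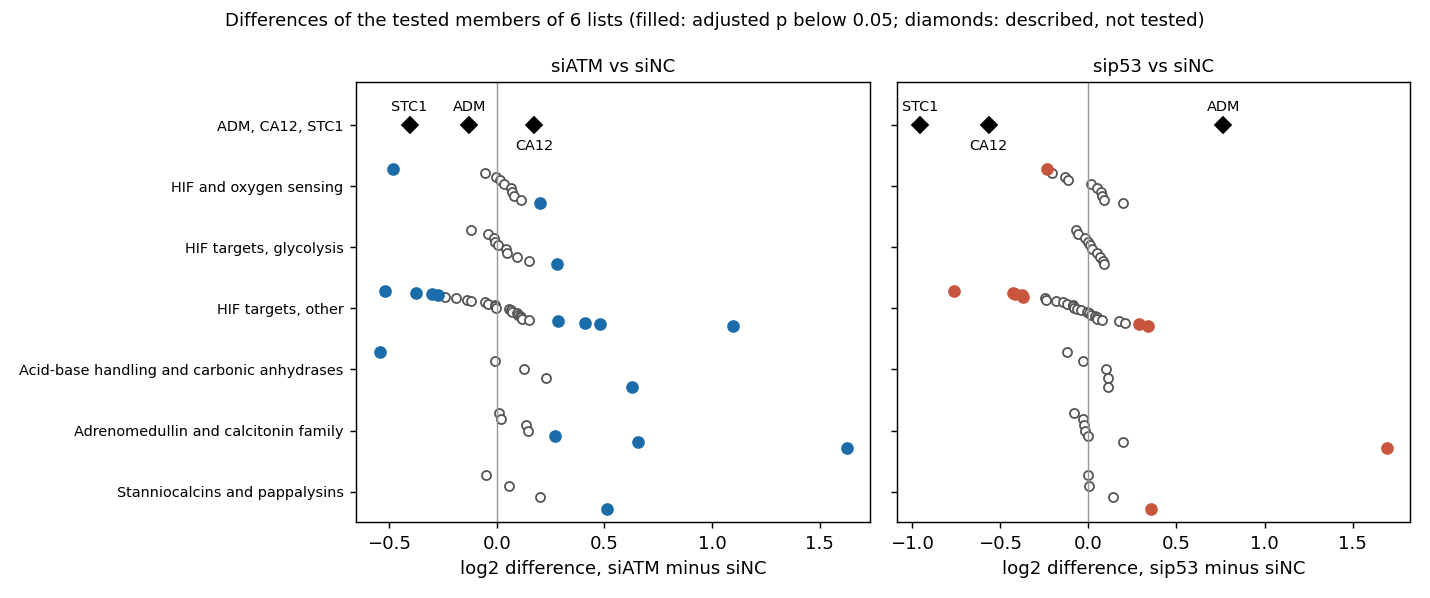
Log2 difference from siNC (horizontal axis) after siATM (left) and sip53 (right) for every tested member of the 6 lists, with filled points for an adjusted p below 0.05 and diamonds for ADM, CA12 and STC1, which were not tested. After sip53 the glycolysis genes lie between −0.07 and 0.09. STC1 (−0.95), CA12 (−0.57) and ADM (0.76) lie farther out, but they were selected on these values.

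Among the factors and oxygen sensors, 10 of 19 were tested, while HIF1A (HIF-1α) and VHL had no probe set named here and were not analysed. After siATM 1 was higher and 1 lower, or 20% beside 25.5% of all tested genes, with a median log2 difference of 0.050. ARNT2, a relative of the shared partner subunit, fell 1.40-fold after siATM (log2 fold change −0.48, SE 0.08, adjusted p = 0.00432), and the coactivator EP300 rose (0.20, SE 0.06, adjusted p = 0.0485), a call lost in 5 of the 6 fits without 1 array (adjusted p up to 0.182). After sip53 1 was lower and 0 higher, or 10% beside 10.6% of all tested genes, with a median of 0.033. This was ARNT, the partner subunit itself, at 9.92 and 9.87 with siNC, 9.92 and 9.89 with siATM, and 9.67 and 9.65 with sip53. The sip53 arrays of ARNT were below the other 4, and its fall was 1.18-fold (log2 fold change −0.23, SE 0.06, adjusted p = 0.0420), a call lost when any siNC or sip53 array was dropped (adjusted p up to 0.205). Between the siRNAs 3 of the 10 were called, or 30% beside 30.3% of all tested genes. In each comparison the share of the list was near or below that of all genes. ARNT was 1.19-fold higher with siATM than with sip53 (adjusted p = 0.0143). ARNT2 and CUL2, a scaffold of the ubiquitin ligase that removes the factors, were 1.28-fold and 1.19-fold lower (adjusted p = 0.0121 and 0.0301). ARNT lost this call when either sip53 array was dropped (up to 0.0883), ARNT2 without sip53 replicate 2 (0.0830), and CUL2 on dropping any siATM or sip53 array (up to 0.151). EPAS1, the factor HIF-2α, and the oxygen sensors EGLN1 and EGLN3 had adjusted p-values of 0.479, 0.530 and 0.787 after siATM and 0.292, 0.713 and 0.146 after sip53 in limma. EGLN3, itself a hypoxia-induced gene, had log2 means of 6.45 ± 0.06 with siNC, 6.48 ± 0.14 with siATM and 6.24 ± 0.04 with sip53 (SD, n = 2 each).

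Of 10 tested glycolytic genes that respond to the same factors, 1 was higher after siATM and 0 lower, beside 25.5% of all tested genes called, and after sip53 0 were called, beside 10.6%. With 10 genes, a count of 0 after sip53 is near the share of all genes. The called gene was HK2, the hexokinase that starts glycolysis, at 9.42 and 9.53 with siNC, 9.74 and 9.77 with siATM, and 9.54 and 9.57 with sip53. Its rise after siATM was 1.21-fold (adjusted p = 0.0170), and it lost its call without siNC replicate 1 or siATM replicate 2 (adjusted p up to 0.103). The log2 differences of the 10 genes after sip53 ran from −0.07 to 0.09, with a median of 0.015. At an unadjusted p below 0.05, the number of glycolysis genes past the threshold after sip53 was also 0, and it was 0 with a trended, robust variance prior. Between the siRNAs 0 of the 10 were called in limma, beside 30.3% of all tested genes, 2 had an unadjusted p below 0.05, and 1 was called with the trended prior.

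Of 26 other target genes tested, 4 were higher and 4 lower after siATM (median log2 difference 0.028), and 2 were higher and 5 lower after sip53 (median −0.07), beside 25.5% and 10.6% of all tested genes called. With dim genes kept 0 were higher and 5 lower after sip53, beside 215 higher and 266 lower among all 14884 genes. The 7 calls after sip53 became fewer when any siNC or sip53 array was left out, as did the calls over all tested genes. The 8 calls after siATM became fewer without siNC replicate 1, as did those over all tested genes. VEGFA, the main angiogenic growth factor of this response, had log2 values of 10.28 and 10.27 with siNC, 9.90 and 9.89 with siATM, and 10.44 and 10.52 with sip53. Its order of groups was that of ADM. VEGFA fell 1.30-fold after siATM (log2 fold change −0.37, SE 0.06, adjusted p = 0.00403), was at 0.21 (adjusted p = 0.0658) after sip53, and differed 1.49-fold between the siRNAs (−0.58, SE 0.06, adjusted p = 0.000615). EDN1, the precursor of the vessel-narrowing peptide endothelin 1, had values of 9.31 and 9.22 with siNC, 9.17 and 9.28 with siATM, and 9.62 and 9.58 with sip53, and was also highest in the sip53 group. It rose 1.26-fold after sip53 (adjusted p = 0.0205), a call lost when any siNC or sip53 array was dropped (adjusted p up to 0.125), and its 1.30-fold difference between the siRNAs (adjusted p = 0.00482) was kept whichever array was left out.

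KLF7, a zinc finger transcription factor, had the order of CA12. It was at 8.31 and 8.41 with siNC, 8.71 and 8.82 with siATM, and 7.97 and 7.89 with sip53. KLF7 rose 1.33-fold after siATM (adjusted p = 0.00573) and fell 1.35-fold after sip53 (adjusted p = 0.0111, lost on dropping siNC replicate 2 or a sip53 array, up to 0.0883), and the 1.79-fold difference between the siRNAs had an adjusted p of 0.000385. INSIG2, which retains the sterol sensor in the endoplasmic reticulum, had the stepwise order of STC1. It was at 8.47 and 8.56 with siNC, 8.07 and 7.92 with siATM, and 7.81 and 7.69 with sip53, a fall of 1.44-fold (adjusted p = 0.00367) and of 1.70-fold (adjusted p = 0.00253). LOX, which cross-links collagen, and MET, the receptor of hepatocyte growth factor, fell after sip53 by 1.34-fold and 1.30-fold (adjusted p = 0.0114 and 0.0106). LOX lost its call on dropping siNC replicate 2 or a sip53 array (adjusted p up to 0.0818), and MET on dropping any siNC or sip53 array (up to 0.0896).

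TMEM45A, a membrane protein gene of the hypoxia response, had values of 7.52 and 7.48 with siNC, 8.60 and 8.59 with siATM, and 7.85 and 7.73 with sip53. It rose 2.14-fold after siATM (log2 fold change 1.10, SE 0.06, adjusted p = 0.000186), followed no member's order, and was 1.75-fold higher with siATM than with sip53 (adjusted p = 0.000342). After sip53 TMEM45A rose 1.22-fold (log2 fold change 0.29, adjusted p = 0.0307; limma), a call lost when any siNC or sip53 array was dropped. Its log2 difference there lay between 0.23 and 0.35 when any 1 array was left out. IGFBP3, which binds insulin-like growth factors, rose 1.39-fold after siATM (adjusted p = 0.00172). In the direct comparison 15 of the 26 differed, 11 higher and 4 lower with siATM, against 30.3% of all tested genes (14.0% higher, 16.3% lower). After median centring the split of all genes called in this comparison turned from 1487 higher and 1732 lower to 1669 and 1558. With dim genes kept the 15 came to 9, while all genes called came from 3219 of 10640 to 2369 of 14884. Fewer of the 26 were called when any 1 array was left out, and fewer of all tested genes were too. Over all 6 lists 24 of 62 differed, or 38.7% against 30.3% of all tested genes, and both counts were smaller when any 1 array was left out.

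**Figure D3:**
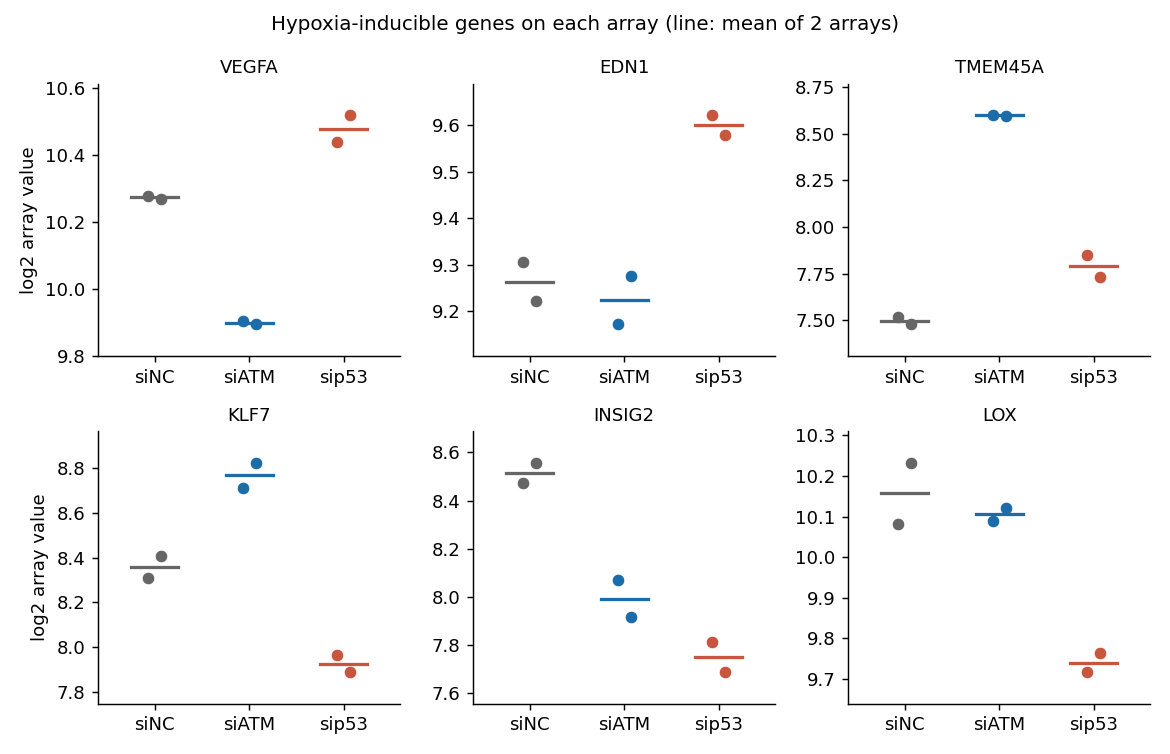
Log2 array value (vertical axes, 1 scale per gene, not starting at 0) of 6 hypoxia-inducible genes on each array, with a line at the mean of 2 arrays. VEGFA and EDN1 are highest with sip53, as ADM is, KLF7 is lowest there, as CA12 is, and INSIG2 is highest with siNC, as STC1 is. Against siNC, VEGFA was called only for its fall after siATM. With 3 groups few orders are possible, so many genes share each, and the share over all genes was not counted.

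Next to ADM stand the proteins that make or receive its peptide. CALCRL, the receptor of adrenomedullin, had log2 means of 4.23 ± 0.11 with siNC, 4.29 ± 0.08 with siATM and 4.06 ± 0.0022 with sip53 (SD, n = 2 each), below the limit for testing. RAMP2, one of the accessory proteins that turn CALCRL into an adrenomedullin receptor, was also below it at 5.68 ± 0.21, 5.54 ± 0.11 and 5.75 ± 0.26. RAMP1 and RAMP3 were tested and had adjusted p-values of 0.262 and 0.848 after siATM and 0.876 and 0.994 after sip53 in limma. Of 7 tested genes of this family, 3 were higher and 0 lower after siATM (median log2 difference 0.15), and 1 was higher and 0 lower after sip53 (median −0.02), beside 12.5% of all tested genes higher and 13.0% lower after siATM and 5.47% and 5.11% after sip53.

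CALCR, the calcitonin receptor that answers amylin when paired with a RAMP, was at 6.51 and 6.45 with siNC, 8.14 and 8.07 with siATM, and 8.15 and 8.19 with sip53. Its rise, 3.09-fold after siATM (adjusted p = 4.79e-05) and 3.24-fold after sip53 (adjusted p = 5.27e-05), is thus seen under both siRNAs, whereas ADM was above siNC with sip53 alone. ACKR3, a scavenging receptor that can take up adrenomedullin, was at 7.17 and 7.24 with siNC, 7.89 and 7.83 with siATM, and 7.31 and 7.50 with sip53. It rose 1.58-fold after siATM (log2 fold change 0.66, SE 0.08, adjusted p = 0.00158) and was 1.37-fold higher there than with sip53 (adjusted p = 0.00448). PAM, the enzyme that amidates adrenomedullin and other peptides, rose 1.21-fold after siATM (adjusted p = 0.0114), a call lost without either siNC array (up to 0.0684). PAM was 1.22-fold higher with siATM than with sip53 (adjusted p = 0.00694), which was lost without sip53 replicate 1 (0.0508). ADM was lowest in the siATM group, in which ACKR3 and PAM were highest.

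**Figure D4:**
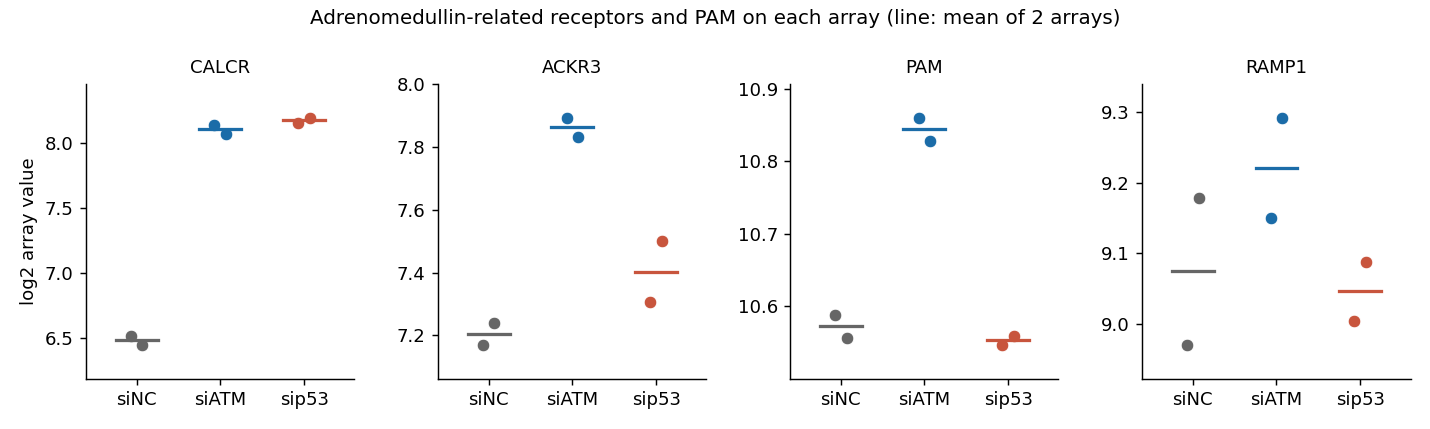
Log2 array value (vertical axes, 1 scale per gene, not starting at 0) of CALCR, ACKR3, PAM and RAMP1 on each array, with a line at the mean of 2 arrays. CALCR is higher under both siRNAs (8.07 to 8.19 against 6.45 and 6.51), ACKR3 and PAM are highest with siATM, and the siNC arrays of RAMP1 overlap with those of each siRNA group.

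Among the relatives of CA12 and the acid-handling genes, 5 of 30 were tested, while CA9 had no probe set named here and was not analysed. After siATM 1 was higher and 1 lower, with a median log2 difference of 0.13, and after sip53 0 were called by limma with either variance prior and 0 had an unadjusted p below 0.05, with a median of 0.10. Among all tested genes 25.5% and 10.6% were called, so with 5 genes these counts say nothing particular of the list. CA13, a cytosolic carbonic anhydrase, was at 8.25 and 8.44 with siNC, 7.70 and 7.90 with siATM, and 8.43 and 8.49 with sip53, and fell 1.46-fold after siATM (adjusted p = 0.00533). CA11, a related protein without catalytic activity, was at 8.14 and 7.89, 8.55 and 8.73, and 8.04 and 7.92 in the same order of groups, and rose 1.55-fold after siATM (adjusted p = 0.00508). In neither gene did the sip53 arrays stand below siNC as those of CA12 did, since the sip53 arrays of CA13 included the highest of all 6 and those of CA11 lay within the range of the siNC arrays. Between the siRNAs, CA13 (log2 fold change −0.66), CA11 (0.66) and CA4, a membrane-anchored carbonic anhydrase (0.35), differed, with adjusted p-values of 0.00192, 0.00315 and 0.0380 in limma, the last lost without siATM replicate 2 or either sip53 array (up to 0.192).

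STC2, the closest relative of STC1, was below the limit for testing, with log2 means of 5.71 ± 0.03 with siNC, 5.48 ± 0.08 with siATM and 5.76 ± 0.01 with sip53 (SD, n = 2 each). Stanniocalcins inhibit the pappalysin proteases, which free insulin-like growth factors from binding proteins. The pappalysin gene PAPPA had no probe set named here and was not analysed. Of 4 tested genes of that system 1 was higher and 0 lower after each siRNA, with medians of 0.13 after siATM and 0.073 after sip53. Among all tested genes 12.5% were higher after siATM and 5.47% after sip53, so with 4 genes these counts say nothing particular of the list. The gene called was IGF1R, the receptor of these growth factors, at 8.02 and 8.16 with siNC, 8.54 and 8.67 with siATM, and 8.44 and 8.45 with sip53. IGF1R rose 1.43-fold after siATM (adjusted p = 0.00310) and 1.28-fold after sip53 (adjusted p = 0.0270), the latter lost on dropping any siNC or sip53 array (up to 0.146). IGFBP4, a pappalysin substrate, differed between the siRNAs (log2 fold change −0.19, adjusted p = 0.0416), a call lost in 6 of 6 fits without 1 array (up to 0.218).

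For each of the 3 genes, the 5 tested genes nearest in profile were those with the smallest root mean square difference over the 6 arrays after the mean of each gene was subtracted. Nearest to ADM were LRRCC1 (0.061), TXNDC16 (0.103), HECTD2 (0.103), HMGCS1, the synthase of hydroxymethylglutaryl-CoA (0.104), and NANOS1, an RNA-binding protein (0.106). LRRCC1 had a log2 difference from siNC of 0.76 with sip53 and −0.13 with siATM, both equal to those of ADM at this rounding.

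CA12 had closer neighbours. They were MILR1 (0.026), the ubiquitin ligase RNF41 (0.046), TMBIM4 (0.046), ADO (0.048) and CHMP1B, an ESCRT subunit (0.048). MILR1 was at 9.64 and 9.53 with siNC, 9.78 and 9.76 with siATM, and 9.03 and 8.99 with sip53. Nearest to STC1 were the lipid phosphatase MTMR6 (0.043), NES, the intermediate filament nestin (0.047), CCDC68 (0.074), RASSF3 (0.076) and the sorting nexin SNX7 (0.080). NES was at 8.09 and 8.002 with siNC, 7.65 and 7.64 with siATM, and 7.17 and 6.99 with sip53, the steps seen for STC1. The 6 arrays come from 3 groups, so the likeness rests on 3 group levels.

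**Figure D5:**
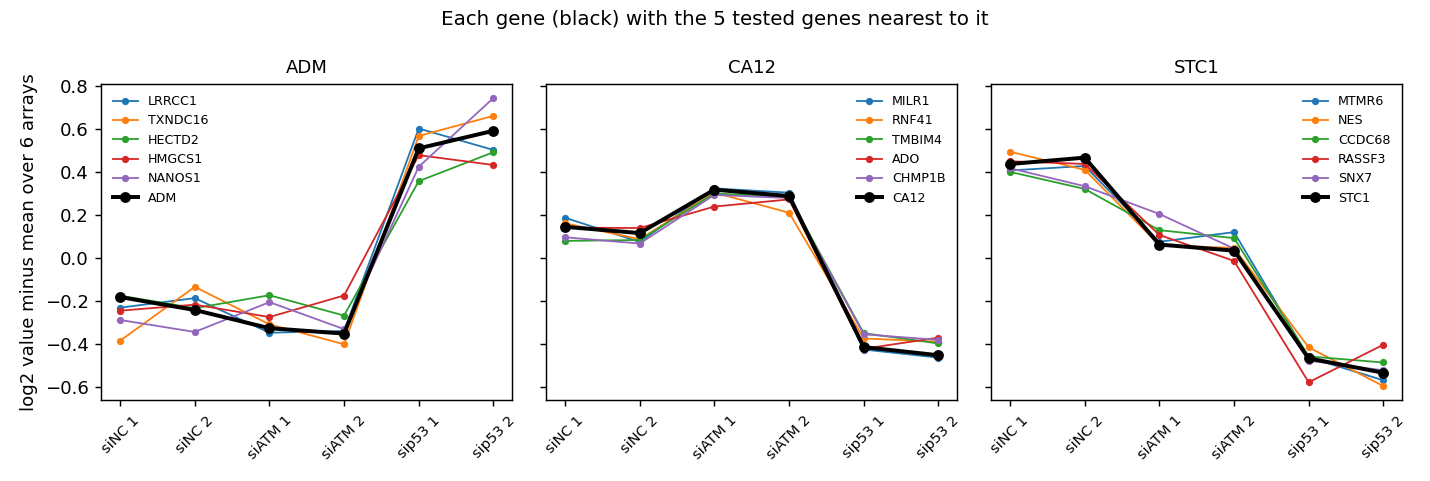
Log2 value minus the gene's mean over the 6 arrays (vertical axis) on each array (horizontal axis) for ADM, CA12 and STC1 (black) and the 5 tested genes nearest to each (coloured). The ADM set is high only on the sip53 arrays, the CA12 set is low there, and the STC1 set steps down from siNC through siATM to sip53.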

How the data were processed

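The deposited table holds 1 log2 value per probe set and array for 53617 probe sets, and the scale was read from the values. How the authors corrected, summarised and normalized them, and with which annotation build, are points not given in the sources used here. Ranked values of the 6 arrays spanned 0.0325 on average, and such equal distributions hide any change in total RNA. Of the probe sets, 16098 were paired with 1 gene symbol through the platform annotation, 0 with several, and 37519 were unnamed here. For 779 genes with several, the probe set with the highest mean was used. Genes with a mean of at least 5.96, the median over probe sets, were fitted in 1 limma model (version 3.58.1, R 4.3.3) of group means with eBayes moderation. P-values are two-sided and Benjamini-Hochberg adjusted over 10640 genes per contrast, with 0.05 as threshold, and SEs are moderated. The procedure was tested on simulated data.

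The members and lists were chosen with earlier results of these data known, so no list is independent support. The genes named were the members, all called list genes (the 4 largest where over 4 were called in a list and contrast), 15 fixed relatives, regulators and receptors where tested, and the 5 nearest genes per member. CALCRL, RAMP2 and STC2, which were not tested, and the cell type markers were named outside this rule, with GATA3, TFF1, KRT8, LUM and PECAM1 singled out after their values were seen. Alternatives covered the filter, scaling, probe-set choice, moderation, groups fitted, a replicate block and leaving out arrays.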

Additional observations from a re-analysis of the deposited data

How the results depend on the processing

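The differences between group means of ADM, CA12 and STC1 kept their sign under quantile normalization, median centring and leaving out any 1 array. Centring each array on its median moved CA12 after sip53 to −0.60, by more than 1 SD between replicates. None of the 3 genes had another probe set to try. The number of genes called after sip53 was 1126, but 481 when dim genes were kept and 1742 under a trended, robust variance prior, and the lists held 6 calls with dim genes kept, against 10. With 1 array left out, all genes called numbered 1437 to 2226 after siATM, 272 to 1242 after sip53 and 1842 to 2852 between the siRNAs, and list genes 11 to 16, 2 to 10 and 12 to 20. Of 51 calls of a list gene in a contrast, 22 were kept in each fit that left out 1 array, 35 under each other alternative, and 0 reversed. The labels give each group replicates 1 and 2 without saying what they share. With the replicate number as a block, 2696, 1001 and 3218 genes were called and 16, 10 and 24 list genes. The deviations of same-numbered arrays correlated at 0.028 to 0.117 over tested genes. The RefSeq window up to 50 bases after the start site held the hypoxia core in 48.4% of windows. In this longer window CA12 held a further CACGC, at base 40 counted from the start site. With 2 arrays a group, the number of arrays limits the precision.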
